A study of Mus musculus with 20 samples.

Results

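Heat shock proteins and chaperones were followed in eosinophils and macrophages of mouse colonic tumors and of naive colon, through 10 genes: Hspa1a, Hspa1b, Hspa8, Hsph1, Dnaja1, Dnajb1, Hsp90aa1, Hsp90ab1, Hspd1 and Hspe1. The genes were chosen by name, with earlier results of these data known, and all 10 were found among the 50600 gene entries of each table. Counts and medians of the 10 beside those of all genes are therefore descriptions. All 10 also passed the filter on low values in both cell types.

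Chaperones bind proteins that are unfolded or misfolded and help them to fold, or hand them on for degradation. HSP70 proteins do this in cycles of ATP binding and hydrolysis that J-domain co-chaperones start and nucleotide exchange factors such as HSP110 complete, while HSP90 finishes the folding of kinases, receptors and other clients, and the chaperonin HSP60 with its lid HSP10 folds proteins inside mitochondria. When misfolded proteins accumulate, the transcription factor HSF1 is released from chaperones and binds heat shock elements, so that the inducible members of these families are transcribed within minutes of heat, oxidative or proteotoxic stress.

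Eosinophils are granulocytes found in healthy colon, and macrophages are the phagocytes resident there. The tumor groups came from wild-type C57BL/6 mice that bore tumors after a procedure the labels call CAC induction, with no agent or age named; the naive groups came from C57BL/6 mice labelled as controls. There were 7 libraries of tumor eosinophils and 2 of naive eosinophils, and 6 of tumor macrophages and 5 of naive macrophages. Colons were digested with enzymes, cells of both types were sorted by flow cytometry, and RNA was extracted with Trizol and measured by CEL-Seq, which reads the 3′ ends of polyadenylated transcripts, with 3 technical replicates per sample. No label ties libraries to separate animals, so p-values measure the spread between these libraries, which may be technical.

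Genes that HSF1 controls carry heat shock elements, inverted repeats of the unit GAA, in their promoters. Promoter sequences from RefSeq (build GRCm38.p6) are shown here, and no link of the motifs to the size of the tumor change was tested. Of the 10 genes, 7 had a promoter entry, which covers 250 bases before the transcript start; Hspa8, Hsp90aa1 and Hsp90ab1 had none. The motif GAANNTTC or TTCNNGAA, each searched on both strands, was present in at least 1 promoter entry of 6 of these 7 genes, all but Dnajb1, and of 14.5% of the 27025 genes with an entry. The longer motif GAANNTTCNNGAA or TTCNNGAANNTTC was present for Hspd1 and Hspe1, which share 1 promoter between their divergent transcripts, and for 0.514% of the genes with an entry. The sequences below run 5′ to 3′ on the strand of the gene, with the matches in capitals. The Hspa1a stretch is chr17:34972197-34972316 on the minus strand, with the match 97 bases before the transcript start, and the Hspa1b promoter holds the same 120 bases at chr17:34959279-34959398. The Hspe1 stretch is chr1:55088053-55088082 on the plus strand, 72 bases upstream and within an annotated exon of Hspd1. The Dnaja1 stretch is chr4:40722333-40722362 on the plus strand, 117 bases upstream of a RefSeq start, and the Hsph1 stretch is chr5:149636351-149636380 on the minus strand, 26 bases upstream; both overlap an exon that GENCODE annotates for the same gene.
Hspa1a: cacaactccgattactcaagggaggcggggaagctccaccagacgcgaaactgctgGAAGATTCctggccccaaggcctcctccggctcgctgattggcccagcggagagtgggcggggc
Hspe1: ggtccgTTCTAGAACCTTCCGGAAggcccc
Dnaja1: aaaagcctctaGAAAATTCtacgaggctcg
Hsph1: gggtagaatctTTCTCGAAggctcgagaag

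Depth was 1978466 to 8520874 reads in tumor eosinophils, 4452513 and 7469714 in naive eosinophils, 2289383 to 7636153 in tumor macrophages and 1477255 to 7945096 in naive macrophages, so that between 12 reads (Hsph1 in tumor eosinophil library 6) and 28784 reads (Hspa1b in naive macrophage library 2) stood behind a value of the 10 genes. Markers of each sorted cell type were higher in its own libraries than in those of the other type. CPM here are reads scaled to the same total in every library. The 10 macrophage markers summed to 11184 to 15902 CPM in tumor and 10290 to 14029 CPM in naive macrophages, against 554 to 883 CPM in the eosinophil libraries. The 10 eosinophil markers summed to 803 to 9675 CPM in tumor and 1746 and 2420 CPM in naive eosinophils, against at most 70.9 CPM in macrophages. In tumor eosinophil library 2 the eosinophil and macrophage markers were close, at 803 and 801 CPM. The granule gene Epx was at 0 in 2 tumor eosinophil libraries, while Siglecf and Ccr3 had reads in all eosinophil libraries. Markers of other cells were present as well. The eosinophil libraries held 4793 to 14563 CPM of 12 neutrophil markers, of which 0 to 3 (Mpo, Elane, Camp or Ngp) were at 0 in a library. In every eosinophil library the neutrophil markers summed to more than the eosinophil markers. The 10 B and plasma cell markers, none at 0, summed to 7310 to 17620 CPM in tumor and 7614 and 4482 CPM in naive eosinophils. In the macrophage libraries they summed to 9373 to 75628 CPM. The part of these cells in the eosinophil chaperone values was not tested. In tumor eosinophil libraries 2 and 3, mitochondrially encoded transcripts took 34.9% and 35.2% of the reads, against 15.2% to 25.1% in the other 7 eosinophil libraries. Naive macrophage library 1 had 15.9%, against 8.23% to 13.3% in the other macrophage libraries. Naive macrophage library 5, the shallowest of all, had 4828 CPM of erythrocyte markers, against 126 to 941 CPM in the other macrophage libraries. It had 2773 CPM of stroma and endothelium markers, against 282 to 950 CPM, and the highest naive Dnaja1 and Dnajb1 values.

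In tumor eosinophils, 5 of the 10 genes fell relative to naive eosinophils: Dnaja1, Dnajb1, Hspa1b, Hspa8 and Hsph1, by 2.34-fold (Hspa8) to 6.18-fold (Hspa1b). Hspa1b and Hspa8 encode HSP70 chaperones, Dnaja1 and Dnajb1 J-domain co-chaperones, and Hsph1 the exchange factor HSP110. None of the 10 rose. Across all 12967 genes tested in eosinophils, 2.19% were called lower in tumor and 2.42% higher. The test was limma on log2(value + 1) with p-values adjusted over all genes, and a gene was called under an adjusted p of 0.05. The values are the deposited normalised reads, which are gene read counts divided by a size factor for each library. The other 5, the HSP70 gene Hspa1a, both HSP90 genes and the 2 mitochondrial chaperonin genes, did not pass the test. In bulk RNA, fewer cells that carry a transcript and less of it per cell cannot be told apart.

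Hspa1a and Hspa1b encode the stress-inducible HSP70 and lie side by side on chromosome 17 (chr17:34969190-34972156 and chr17:34956436-34959238, GRCm38, GENCODE). Hspa1b had 364, 630 and 1739.7 normalised reads in tumor eosinophils (lowest, median and highest of 7), against 4301 and 4893 in naive eosinophils. Every tumor library was below both naive ones, and the change was -2.63 ± 0.51 on the log2(value + 1) scale (SE, limma adjusted p = 0.0144). Hspa1a had 135, 277 and 627 normalised reads in tumor eosinophils, against 674 and 1246 in naive eosinophils. The groups did not overlap for Hspa1a either, but the highest tumor libraries, 2 and 3, came close to naive library 2, and the change of -1.70 ± 0.54 had a limma adjusted p of 0.0985. Summed, the 2 genes had 499.8, 907 and 2312 normalised reads in tumor eosinophils, against 5547 and 5567 in naive eosinophils, a change of -2.44 ± 0.52 (limma adjusted p = 0.0198).

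Hspa8 encodes HSC70, the constitutive cytosolic HSP70, and Hsph1 encodes HSP110, which recharges HSP70 with ATP. Hspa8 had 147, 175 and 295 normalised reads in tumor eosinophils, against 399.7 and 491 in naive eosinophils. The groups did not overlap, and the change was -1.23 ± 0.31 (limma adjusted p = 0.0422), a call that was kept in 1 of 9 fits with a library left out (adjusted p up to 0.192). Hsph1 had 25.8, 48.1 and 125 normalised reads in tumor eosinophils, against 169 and 411 in naive eosinophils. All 7 tumor libraries lay below both naive ones, while the naive libraries themselves stood 2.43-fold apart, and the change was -2.19 ± 0.57 (limma adjusted p = 0.0493). Its call was kept in 2 of the 9 fits, and the change ranged from -2.83 without naive library 2 to -1.55 without naive library 1 (adjusted p = 0.144 and 0.241).

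Dnaja1 and Dnajb1 encode HSP40 proteins, J-domain co-chaperones that bring clients to HSP70 and start its ATP hydrolysis. Dnaja1 had 514, 564 and 780.02 normalised reads in tumor eosinophils, against 2082 and 2303 in naive eosinophils. The tumor libraries spanned 1.52-fold and lay well below the naive pair, and Dnaja1 had the smallest p of the 10 genes, with a change of -1.84 ± 0.26 (limma adjusted p = 0.0034). Dnajb1 had 146, 176 and 220.25 normalised reads in tumor eosinophils, against 378 and 726 in naive eosinophils. The groups did not overlap, and the change was -1.56 ± 0.31 (limma adjusted p = 0.0156).

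Hsp90aa1 encodes the stress-inducible and Hsp90ab1 the constitutive cytosolic HSP90. Hsp90aa1 had 1041, 1235 and 2439 normalised reads in tumor eosinophils, against 2397 and 3379.8 in naive eosinophils. Library 2 alone among the tumor libraries reached the naive range, and the difference of -1.12 ± 0.33 had a limma adjusted p of 0.0764. Hsp90ab1 had 520.4, 604 and 973 normalised reads in tumor eosinophils, against 627 and 990.18 in naive eosinophils, and its difference of -0.20 ± 0.31 was smaller than its error.

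Hspd1 (HSP60) and Hspe1 (HSP10), the barrel and lid of the mitochondrial chaperonin, overlapped between the groups. Hspd1 had 83.6, 125 and 207 normalised reads in tumor eosinophils, against 139.8 and 229 in naive eosinophils. Hspe1 had 1085, 1556 and 3827 normalised reads in tumor eosinophils, against 1791 and 2893 in naive eosinophils, with 2 tumor libraries above both naive ones. Their differences were -0.54 ± 0.37 and -0.41 ± 0.46.

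**Figure D1:**
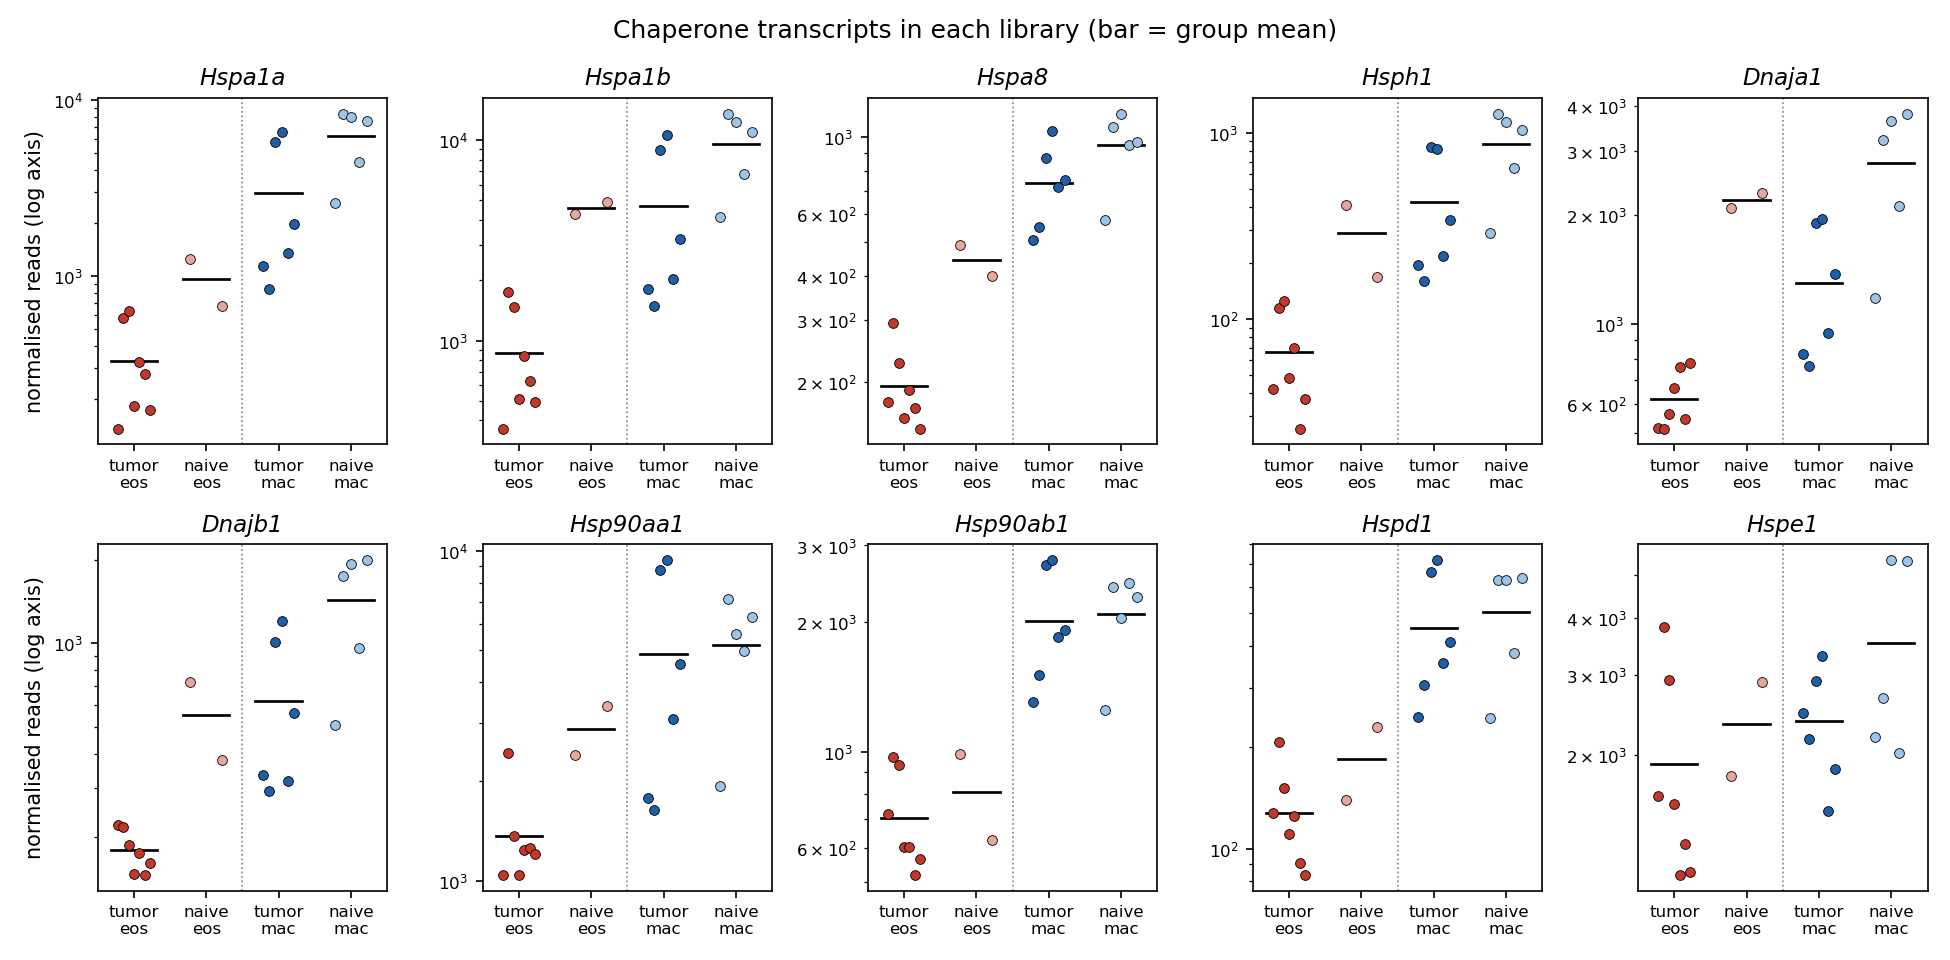
Normalised reads of each of the 10 genes (vertical log axis) in every library of tumor eosinophils (7), naive eosinophils (2), tumor macrophages (6) and naive macrophages (5); each point is 1 library and each bar a group mean, and eosinophils and macrophages were scaled separately. All 7 tumor eosinophil libraries lie below both naive ones for Hspa1a, Hspa1b, Hspa8, Hsph1, Dnaja1 and Dnajb1, whereas the macrophage groups overlap for every gene.

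In eosinophils the median change was -1.39 over the 10 genes, all of them with a negative change, and 0.01 over all genes. Every tumor library lay below every naive library for 6 of the 10 genes and for 9.76% of all genes. The calls depended on single libraries: 2 remained without naive library 1 (Dnaja1 and Hspa1b) and 2 without naive library 2 (Dnaja1 and Dnajb1), and 3 (Dnaja1, Dnajb1 and Hspa1b) without tumor library 1, 4, 5, 6 or 7. Dnaja1 was called in all 9 fits that left out 1 library, Dnajb1 and Hspa1b in 8 each. Without tumor libraries 2 and 3 together, which also held most of the highest tumor values of these genes, so that the fall is larger by construction, 7 genes were called, with Hspa1a and Hsp90aa1 added.

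Tumor libraries 2 and 3 carried the highest chaperone values among tumor eosinophils. They were among the 2 highest of the 7 for 9 and 8 of the 10 genes, although library 2 had the lowest Dnaja1 value. The 10 genes together summed to 2586 and 2018 CPM in these libraries and to 1100.2 to 1249.8 CPM in the other 5 tumor libraries, against 3364 and 2966 CPM in naive eosinophils. Libraries 2 and 3 also had the fewest reads of the eosinophil markers (803 and 918 CPM) and of the neutrophil markers (4793 and 5334 CPM) and, with library 1, the most of the epithelial markers (3313 and 3669 CPM, against 1255 to 1839 CPM in tumor libraries 4 to 7 and 1743 and 1212 CPM in naive eosinophils). The part of these markers and of the mitochondrial share in the chaperone values was not tested.

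In macrophages the same 10 genes had estimates in the same direction. Only Dnaja1 passed the test, at 2.13-fold lower in tumor macrophages, and no gene rose. Across all 11520 genes tested in macrophages, 8.59% were called lower in tumor and 8.5% higher, so 1 call among the 10 genes is close to the background. Hspa1a, Hspa1b, Hsph1 and Dnajb1 had values of 2.27 to 2.64-fold lower that missed the threshold, and the HSP90, HSC70 and chaperonin genes were within 1.40-fold of naive. The tumor libraries differed among themselves, and libraries 3 and 4 had the 2 highest tumor values of each gene.

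Dnaja1 had 767, 1158 and 1946 normalised reads in tumor macrophages (lowest, median and highest of 6). In naive macrophages it had 1180.5, 3206, 3618, 2109.8 and 3799.9. Naive library 1 lay within the tumor range and the other 4 naive libraries above it, and the change was -1.09 ± 0.32 (limma adjusted p = 0.0281). Dnajb1 had 293, 447 and 1207 normalised reads in tumor macrophages, against 506, 1746, 1924, 964 and 1997 in naive macrophages. Its groups overlapped through tumor libraries 3, 4 and 6 and naive libraries 1 and 4, and the difference of -1.27 ± 0.42 had a limma adjusted p of 0.0512.

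Hspa1a had 840.1, 1650.3 and 6566 normalised reads in tumor macrophages, against 2575, 8302, 7980.2, 4422 and 7585 in naive macrophages. Hspa1b had 1487, 2619 and 10652 in tumor macrophages, against 4148, 13537, 12356, 6751 and 11002 in naive macrophages. For both, 4 of the 6 tumor libraries were below all naive ones and the remaining 2, libraries 3 and 4, were not, and the differences of -1.40 ± 0.50 and -1.35 ± 0.49 had limma adjusted p-values of 0.0695 and 0.0759. Hsph1 had 159.6, 279 and 837 normalised reads in tumor macrophages, against 289, 1266, 1137, 647 and 1041 in naive macrophages. Its difference of -1.18 ± 0.47 had a limma adjusted p of 0.0993.

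The constitutive and mitochondrial genes stood closer to naive in macrophages. Hspa8 had 509, 736 and 1035 normalised reads in tumor macrophages, against 578, 1067, 1162, 947 and 962 in naive macrophages (difference -0.36 ± 0.20). Hsp90ab1 had 1302, 1876 and 2777 in tumor macrophages, against 1250.03, 2412, 2037, 2459 and 2276 in naive macrophages (difference -0.07 ± 0.22). The inducible Hsp90aa1 also showed little difference between groups, -0.30 ± 0.46, with 1641, 3802 and 9369.8 normalised reads in tumor macrophages, against 1937, 7152, 5580.5, 4963 and 6304 in naive macrophages. Its highest 2 values of all 11 macrophage libraries were in tumor libraries 3 and 4. Hspd1 had 246, 384 and 719 normalised reads in tumor macrophages, against 244, 628, 627, 381 and 634 in naive macrophages, a difference of -0.17 ± 0.30. Hspe1 had 1505, 2318 and 3299 in tumor macrophages, against 2186, 2669.8, 5385, 2018 and 5366 in naive macrophages, a difference of -0.49 ± 0.28.

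**Figure D2:**
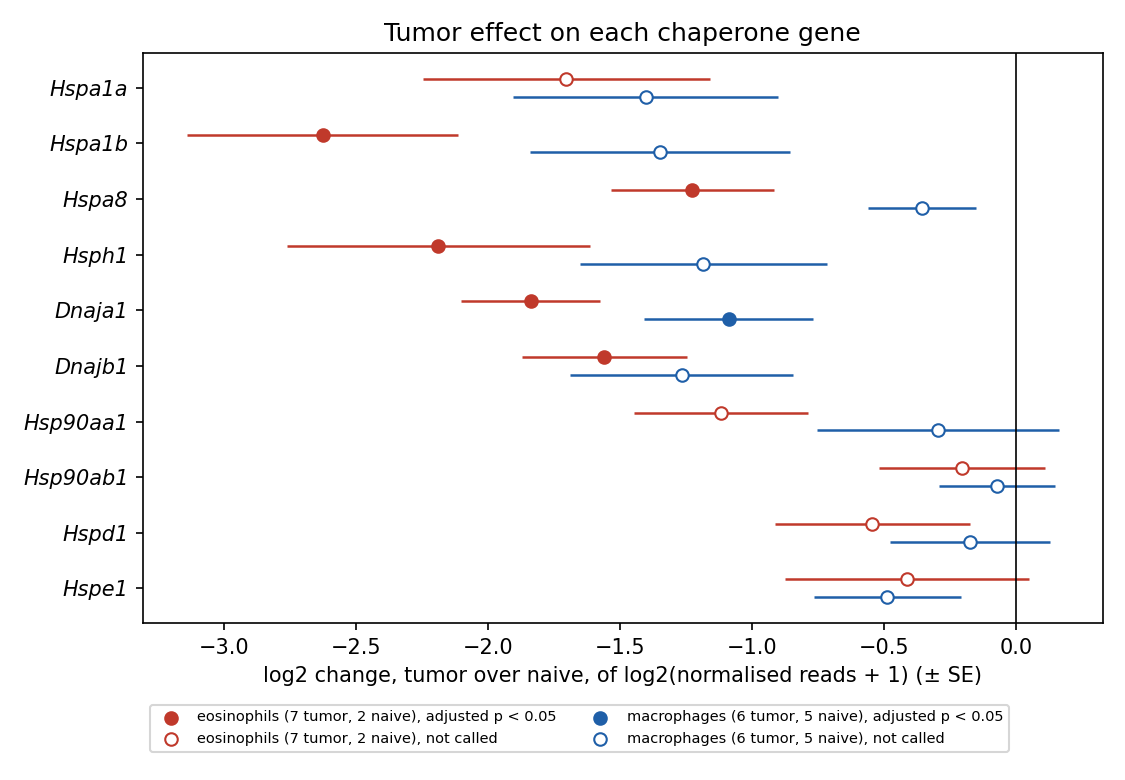
Log2 change of each gene between tumor and naive (horizontal axis, tumor over naive, limma estimate ± SE) in eosinophils (red) and macrophages (blue); filled points passed an adjusted p of 0.05. All 10 estimates are negative in both cell types, 5 are filled in eosinophils, and only Dnaja1 is filled in macrophages.

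In macrophages the median change was -0.79 over the 10 genes and 0.03 over all genes, all 10 changes were negative, and 5 had an unadjusted p under 0.05. Tumor libraries were all below naive libraries for 0 of the 10 genes and for 5.47% of all genes. Without naive library 1, tumor library 3 or tumor library 4, 5 genes were called (Dnaja1, Dnajb1, Hspa1a, Hspa1b and Hsph1). Without tumor library 1, 2 or 5 or naive library 2, 3 or 5, none was called.

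The spread between macrophage libraries was above the median over all genes tested for each of the 10 genes, in both groups. Among tumor macrophages the SD of log2 values was 1.24 for Hspa1a, 1.22 for Hspa1b, 1.09 for Hsp90aa1 and 1.05 for Hsph1, against a median of 0.35. The constitutive and mitochondrial genes ranged from 0.39 (Hspa8) to 0.61 (Hspd1). Among naive macrophages the 10 genes ranged from 0.39 (Hspa8) to 0.88 (Hsph1), against a median of 0.36. Tumor libraries 3 and 4 held the 2 highest values of the tumor group for 10 of 10 genes, and libraries 1 and 2 were among the 2 lowest for 8 and 9 of 10. The 10 genes summed to 10319 and 11216 CPM in tumor libraries 3 and 4 but to 2654 and 2361 CPM in libraries 1 and 2 and to 3470.2 and 4689 CPM in libraries 5 and 6, against 3418 to 11237 CPM in naive macrophages. Among naive libraries, library 1 was the lowest for 9 of 10 genes. The tumor libraries also fell into pairs over all genes: the chi-square of their read counts per degree of freedom was 7.78 for tumor libraries 1 and 2, 7.37 for 3 and 4 and 11.9 for 5 and 6, against 20.2 to 63.5 for the other tumor pairs, and all were far above the value of 1 that sampling noise alone gives. The labels do not say what these pairs shared.

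**Figure D3:**
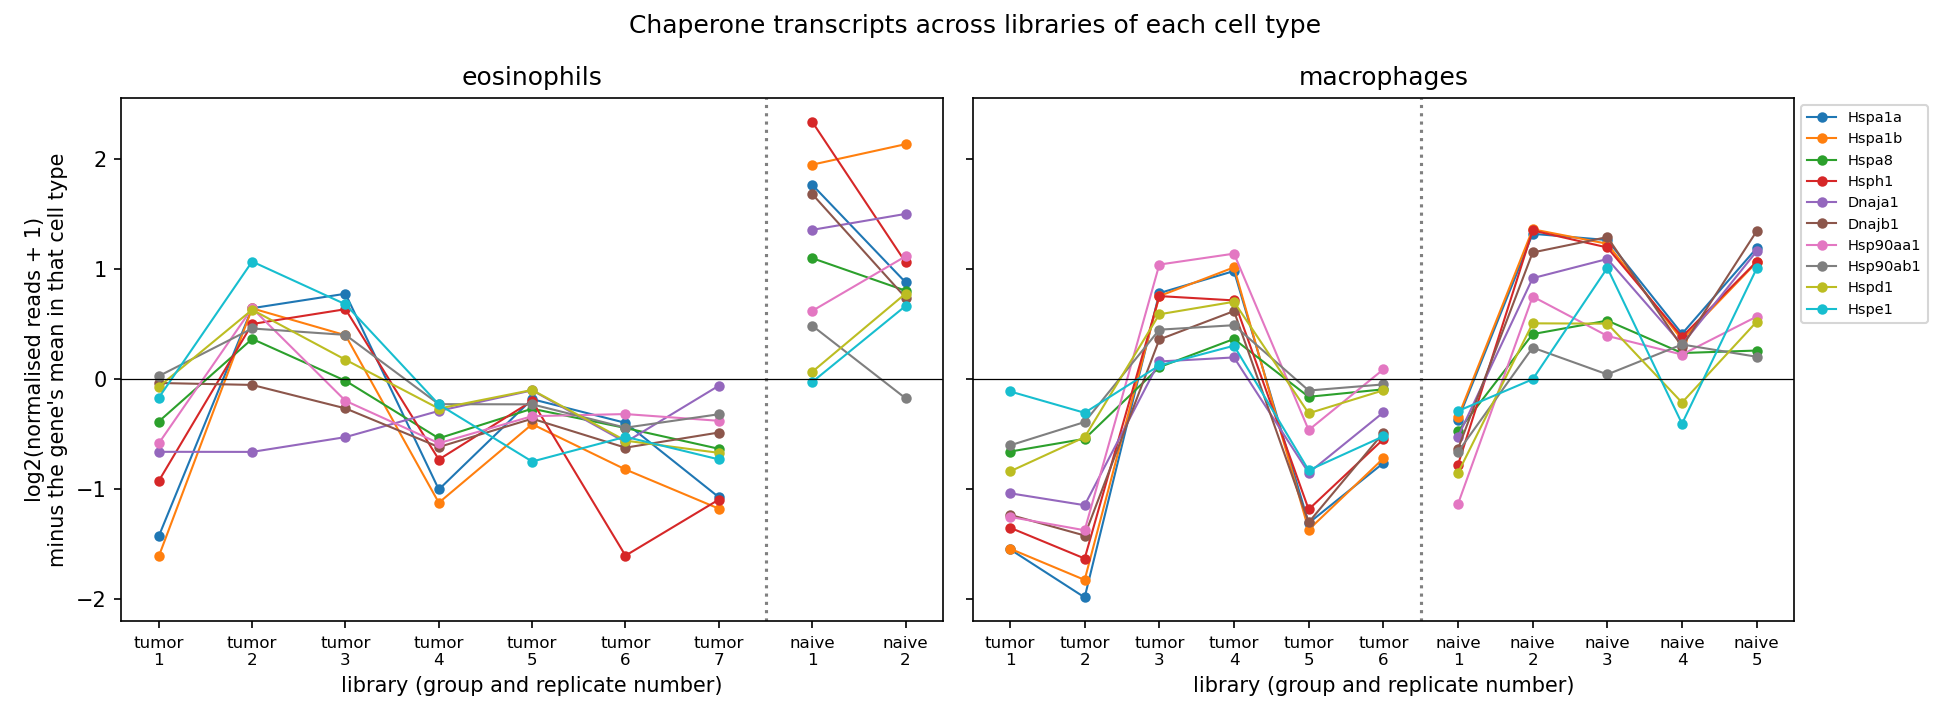
Log2(normalised reads + 1) of each of the 10 genes minus its mean over the libraries of that cell type (vertical axis), by library (horizontal axis, tumor left of naive), for eosinophils and macrophages; lines join the values of 1 gene and do not stand for an order of libraries. In macrophages the genes move together, up in tumor libraries 3 and 4 and down in tumor libraries 1, 2 and 5 and in naive library 1.

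Markers of other cells differed between the macrophage libraries as well. T and NK cell markers summed to 95.8 to 209.7 CPM in tumor macrophages and 442 to 567 CPM in naive macrophages, and neutrophil markers to 133 to 823 CPM in tumor macrophages and 36.6 to 63.9 CPM in naive macrophages, so that neither overlapped between the groups. Of 11 T and NK cell markers 1 to 3 were at 0 in a macrophage library, Ncr1 in all but naive library 2, and of 12 neutrophil markers 0 to 5 were. B and plasma cell markers summed to 9373 and 9374 CPM in tumor libraries 3 and 4, against 25680.4 to 72418 CPM in the other 4 tumor libraries and 18188 to 75628 CPM in naive macrophages, and naive library 1, with low chaperone levels, was the lowest naive library in these markers. No relation between these sums and the chaperone levels was computed over all macrophage libraries. Naive library 1 also had the most epithelial marker reads of the macrophage libraries, 2526 CPM against 323 to 1379 CPM in the others. The part of these cells in the chaperone levels was not tested.

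Most of the 10 genes varied together. Over the 9 eosinophil libraries the correlation between 2 of the genes had a median r of 0.73 over 45 pairs (0.09 to 0.96), and over the 11 macrophage libraries a median of 0.86 (0.34 to 0.998). With the group means removed the medians were 0.61 (-0.60 to 0.92, 28 of 45 pairs over 0.5) in eosinophils and 0.93 (0.34 to 0.998) in macrophages, so in macrophages the genes moved together within the tumor and the naive group and not only between them. Dnaja1 was the exception in eosinophils: within the groups it correlated negatively with each of the 9 other genes (-0.60 to -0.23). With the groups kept, the weakest pair in eosinophils was Dnaja1 with Hsp90ab1 and in macrophages Hsp90ab1 with Hspe1. Pairs share the depth, scaling and cell content of each library, and these values are descriptions.

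The genes whose profile over libraries was most like the mean of the 10 differed between the cell types. Group means were kept here, so r holds the difference between tumor and naive as well as the variation within groups. In macrophages the closest were Bag3 (r = 0.97 over 11 libraries), an HSP70 co-chaperone that is itself induced by HSF1, then Gpr155 (0.94), Dnaja4 (0.93), a J-domain co-chaperone, Gadd45g (0.92) and Csad (0.92). Bag3 had 326, 806 and 2631 normalised reads in tumor macrophages, against 496, 3069, 2015, 1561 and 2118 in naive macrophages. Its 2 highest tumor values were in libraries 3 and 4, and the difference between the groups, -0.82 ± 0.57, did not pass the test. In eosinophils the closest were Jun (0.98 over 9 libraries) and Klf2 (0.98), transcription factors of the immediate-early response and of quiescence, then Hcar1 (0.97), Hes1 (0.96) and Brd3 (0.96). Jun had 5818, 8899 and 16129 normalised reads in tumor eosinophils, against 32741 and 36393 in naive eosinophils. The groups did not overlap and Jun fell by 1.93 ± 0.42 on the log2 scale (limma adjusted p = 0.0230), while Bag3 in eosinophils had 47.3, 99.7 and 136 normalised reads in tumor and 168 and 130.4 in naive libraries.

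Immediate-early genes, which are switched on by tissue dissociation as well as by signals in the tissue, were also called between the groups. Of 26 measured genes of an immediate-early and dissociation list, 15 fell and 2 rose in tumor eosinophils, and 14 fell and 3 rose in tumor macrophages, with median changes of -1.14 and -0.63. Over all genes 2.19% were called lower and 2.42% higher in tumor eosinophils, and 8.59% and 8.5% in tumor macrophages. Fos fell by 2.05 ± 0.26 and Dusp1 by 2.36 ± 0.29 on the log2 scale in tumor eosinophils (limma adjusted p = 0.00185 and 0.00153), whereas Ier3 rose by 2.17 ± 0.30 (adjusted p = 0.00269). In tumor macrophages Fosb fell by 1.32 ± 0.19, Egr1 by 1.11 ± 0.17 and Jund by 1.47 ± 0.24. In macrophages, the highest Jun value of the 11 libraries (23267 normalised reads) was in naive library 1. That library was the lowest naive one for 9 of the 10 chaperone genes, and other libraries were not compared here. In eosinophils, Jun and Klf2 of the same list had the profiles closest to the mean of the 10 genes (r = 0.98 for each, with the group means kept). The labels give no digestion time, sort time or day, and the part of dissociation in the chaperone differences was not tested.

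Whether the tumor effect differed between the cell types was tested in 1 fit of all 20 libraries scaled together. The eosinophil effect minus the macrophage effect was negative for all 10 genes, from -1.39 ± 0.81 (Hspa1b) to -0.03 ± 0.55 (Hspe1), but 0 of 10 passed the test, against 3.9% of the 15600 genes tested. The constitutive Hspa8 had the smallest p: its difference was -0.98 ± 0.39, with an unadjusted p of 0.0188 and a limma adjusted p of 0.168, and it was the only one of the 10 with an unadjusted p under 0.05. For Dnaja1 the difference was -0.86 ± 0.48 (limma adjusted p = 0.359). A call in eosinophils and none in macrophages therefore does not show that the effects differed.

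On that common scale, tumor eosinophils had the lowest mean of the 4 groups for all 10 genes, and naive macrophages the highest for 9, with Hsp90ab1 the exception. Between the tumor groups, 9 of the 10 genes were lower in eosinophils than in macrophages, against 23.3% of all genes called lower. Hspa1a was 6.59-fold lower, with a mean of 479.6 ± 291 scaled reads in tumor eosinophils and 3775 ± 3307 in tumor macrophages (SD, n = 7 and 6; change -2.72 ± 0.46, limma adjusted p = 5.88e-05). Hspa8 averaged 286 ± 81.4 scaled reads in tumor eosinophils and 948 ± 272 in tumor macrophages, with a change of -1.72 ± 0.21 (adjusted p = 9.81e-07), the smallest p of the 10. Hsph1 was 5.14-fold, Hspa1b 4.03-fold, Hspd1 2.95-fold, Dnajb1 2.58-fold, Hsp90aa1 2.56-fold, Hsp90ab1 2.45-fold and Dnaja1 1.71-fold lower. The Dnaja1 call was lost in 7 of 20 fits that left out a library (adjusted p up to 0.0952), among them those without tumor macrophage library 3 or 4, and the other 8 calls were kept in all 20. Leaving out a tumor macrophage library kept the other of its pair in the fit. Hspe1 was the exception, at -0.22 ± 0.30 (limma adjusted p = 0.588).

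Between the naive groups, 2 of the 10 genes were lower in eosinophils, a share close to the 14.9% of all genes called lower, and the other 8 did not pass the test. Hspa1a averaged 1457 ± 699.8 scaled reads in naive eosinophils and 7463 ± 3109 in naive macrophages (SD, n = 2 and 5), a change of -2.31 ± 0.70 (limma adjusted p = 0.0146). Hsp90ab1 averaged 1223 ± 464 scaled reads in naive eosinophils and 2531 ± 669 in naive macrophages, a change of -1.05 ± 0.35 (adjusted p = 0.0266). Dnaja1 had close means in both naive cell types, 3275 ± 18.2 scaled reads in eosinophils and 3354 ± 1306 in macrophages, a difference of 0.09 ± 0.40. Without naive eosinophil library 2 none of the 10 was called, without naive macrophage library 2 or 4 only Hspa1a was, and without naive macrophage library 1 there were 4.

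Hspa1a and Hspa1b encode nearly the same protein, and their promoters were identical at 247 of the 250 bases before the start. Their transcripts differ at the 3′ end, where CEL-Seq reads are taken: the last 300 bases of the annotated transcripts were 49.8% identical, against 85.3% over the whole transcripts. The ratio of Hspa1b to Hspa1a reads varied little within tumor eosinophils and within both macrophage groups, and set the cell types apart. It was 2.27 to 3.04 in tumor eosinophils (mean 2.66 ± 0.28, SD, n = 7), above all tumor macrophage libraries, which had 1.52 to 1.77 (1.62 ± 0.087, n = 6), with an exact permutation p of 0.00117, two-sided, the smallest that the design allows (0.00466 after Benjamini-Hochberg adjustment over 4 comparisons). Naive eosinophils had ratios of 3.45 and 7.26, again above all 5 naive macrophage libraries with 1.45 to 1.63 (1.55 ± 0.072), and the exact permutation p of 0.0952 was again the smallest that 2 against 5 libraries allow. All tumor eosinophil ratios were below both naive eosinophil ones (exact permutation p = 0.0556, the smallest that 7 against 2 libraries allow), and tumor and naive macrophages overlapped (exact permutation p = 0.242). The permutations treat libraries as independent, whereas the tumor macrophage libraries fell into pairs over all genes. The sources used here do not state how reads that match both copies were counted.

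Few genes of the wider chaperone network were called, and their counts stand beside 2.19% lower and 2.42% higher over all genes in eosinophils, and 8.59% lower and 8.5% higher in macrophages. In tumor eosinophils none of the measured heat shock factors and their regulators (6), other HSP70 and HSP110 genes (8), other J-domain genes (25), small heat shock proteins (4), mitochondrial chaperones and proteases (13), TRiC subunits (8) or prefoldin subunits (6) were called in either direction. Hsf1, the master regulator of the response, was at 38.1, 63.4 and 86.0 normalised reads in tumor eosinophils and at 42.3 and 83.0 in naive eosinophils. Among 26 HSP90 and HSP70 co-chaperones, Ppid, the peptidyl-prolyl isomerase CYP40 that binds HSP90, fell by 1.43 ± 0.36 on the log2 scale (limma adjusted p = 0.0410), with 44.9, 83.3 and 101 normalised reads in tumor eosinophils, against 169 and 275 in naive eosinophils. Dnajb4, an HSP40 close to Dnajb1, had 32.1, 40.1 and 64.5 normalised reads in tumor eosinophils, against 119 and 100.2 in naive eosinophils, and missed the threshold with -1.29 ± 0.37 (limma adjusted p = 0.0687).

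Of 17 chaperones of the endoplasmic reticulum (ER), 2 rose and none fell in tumor eosinophils, and the 15 others were not called; 10 of the 17 estimates were positive and 7 negative, with a median of 0.12. Calr, the calcium-binding lectin chaperone calreticulin, had 706, 1097 and 1254 normalised reads in tumor eosinophils, against 685 and 147 in naive eosinophils. Its naive libraries stood far apart, and it rose by 1.71 ± 0.45 (limma adjusted p = 0.0486). Manf, a secreted ER stress protein, had 202, 319.9 and 404 normalised reads in tumor eosinophils, against 171 and 66.4 in naive eosinophils, a change of 1.50 ± 0.37 (limma adjusted p = 0.0380).

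In tumor macrophages, 2 of 9 other HSP70 and HSP110 genes fell. Hspa5, the ER HSP70 known as BiP, had 7998, 8373 and 13617 normalised reads in tumor macrophages, against 14282, 15819, 14669, 17863 and 13151 in naive macrophages. Tumor library 5 alone reached the naive range, and Hspa5 changed by -0.67 ± 0.17 (limma adjusted p = 0.0143). Hspa1l, the HSP70 gene next to Hspa1a in the same cluster, had 1.04, 7.35 and 14.0 normalised reads in tumor macrophages, against 14.2 to 42.5 in naive macrophages, and changed by -1.99 ± 0.50 (limma adjusted p = 0.0121). Of 28 other J-domain genes 4 rose, among them Dnajc10 (0.69 ± 0.19) and Dnajb6 (0.47 ± 0.13), and Dnajb4 fell, with 47.2, 74.5 and 116 normalised reads in tumor macrophages, against 105, 166, 129, 151 and 197 in naive macrophages (-1.02 ± 0.24, limma adjusted p = 0.00751).

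Single genes were called in several other lists in tumor macrophages, shares at or below those over all genes apart from the 2 ER chaperones that fell. The HSP70 exchange factor Bag1 rose by 0.37 ± 0.10 on the log2 scale (1 of 26 co-chaperones), the mitochondrial exchange factor Grpel2 by 0.82 ± 0.21 (1 of 13), and the ER disulfide isomerase P4hb by 0.69 ± 0.13. The collagen chaperone Serpinh1 fell by 1.12 ± 0.35, so that 1 of 18 ER chaperones rose and 2, with Hspa5, fell. None of the 4 measured heat shock factors and their regulators, 5 small heat shock proteins, 8 TRiC subunits and 6 prefoldin subunits were called, although Hspb1, the stress-inducible HSP27, had an estimate of -1.25 ± 0.44 (limma adjusted p = 0.0666). The 5 small heat shock proteins had a median of -1.01, with 4 estimates negative and 1 positive. Of these 5 genes, 4 had an unadjusted limma p under 0.05.

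**Figure D4:**
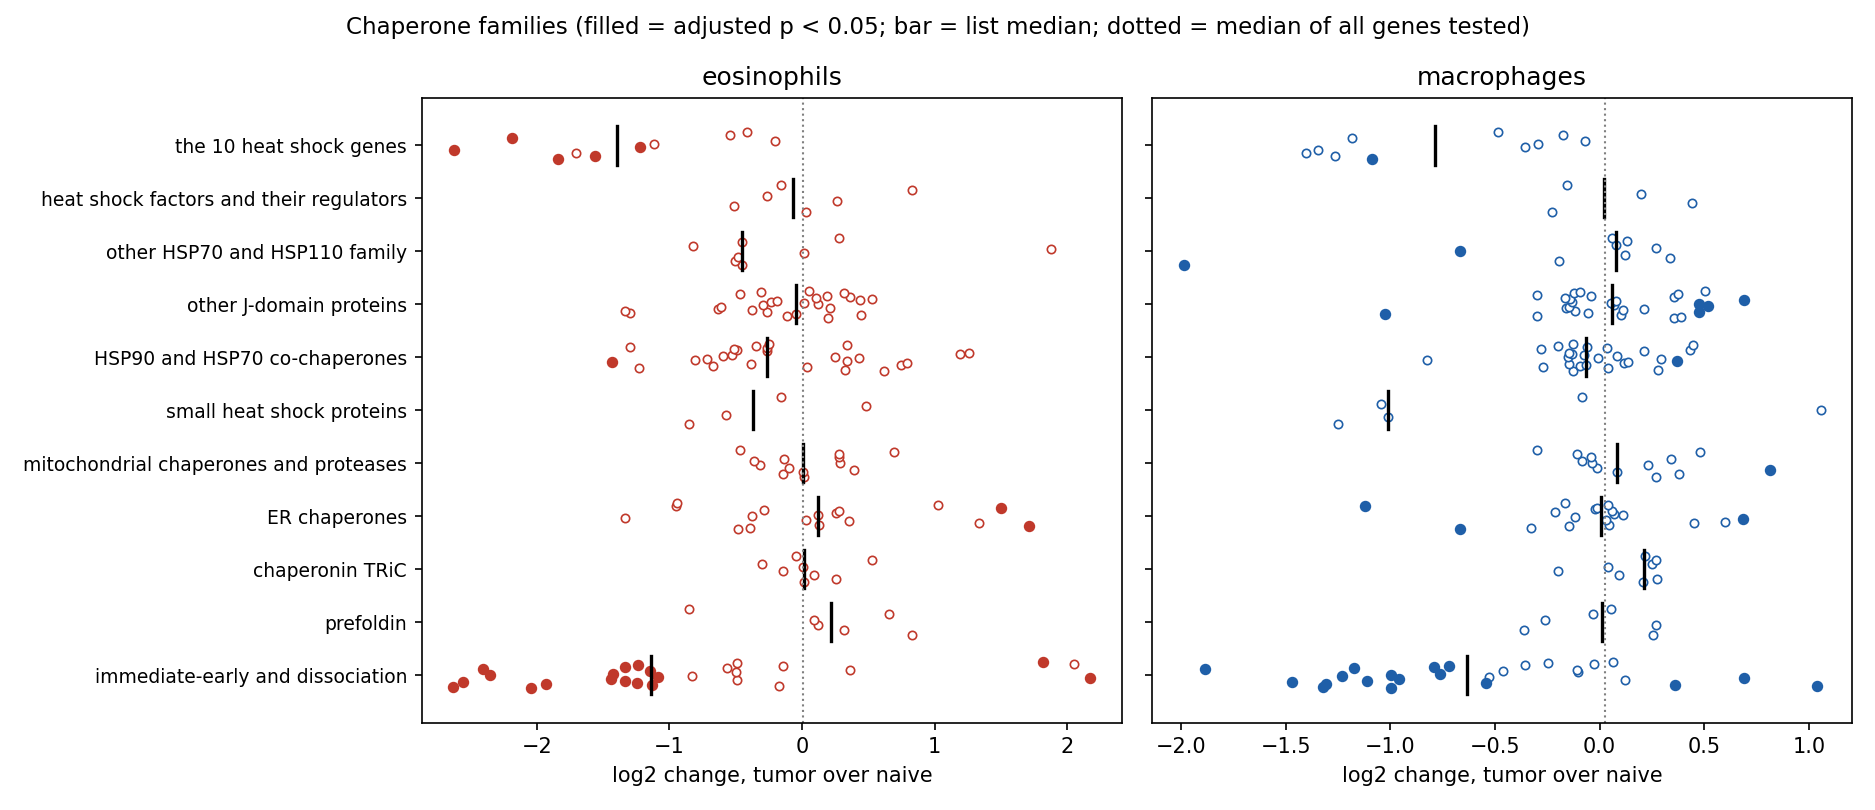
Log2 change between tumor and naive (horizontal axis, tumor over naive) of every measured gene of each list (rows), in eosinophils and macrophages. The rows are the chaperone families and the immediate-early and dissociation list, which is not a chaperone family. That list has medians of -1.14 in eosinophils and -0.63 in macrophages. Filled points passed an adjusted p of 0.05, the bar is the median of a list and the dotted line that of all genes tested. The medians of the 10 heat shock genes are -1.39 in eosinophils and -0.79 in macrophages, while TRiC, prefoldin, J-domain and mitochondrial lists lie near the dotted line. The small heat shock proteins have medians of -0.37 in eosinophils and -1.01 in macrophages, the latter below that of the 10 genes. Other HSP70 and HSP110 genes have medians of -0.45 and 0.08.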

How the data were processed

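For each cell type the authors deposited 1 table, holding a signal of gene read counts divided by a size factor per library, in 2 decimals; the unit follows from the values, since no header names it. Each of the 374526 non-zero values was a whole number of reads within 0.1 read (100%), so reads were recovered for all 20 libraries. Per the submitters' processing notes, the build was GRCm38.p5 and the tools were DESeq2 1.14.1, HTSeq 0.6.1, TopHat2 2.1.0 with Bowtie2 2.2.6, Trim Galore and FastQC 0.11.5. The sources used here do not give their settings, the annotation, strand use, treatment of amplified copies or how technical replicates were combined. Entries with a number for a name (27, at most 0.132% of reads) were left out.

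Values were tested as log2(normalised reads + 1) with limma 3.58.1 (eBayes with trend, two-sided, R 4.3.3) within each cell type, for genes reaching 10 normalised reads in at least 2 eosinophil or 5 macrophage libraries. A gene was called where its Benjamini-Hochberg adjusted p, taken over every gene tested, was under 0.05. Fold changes on this scale understate changes of low genes. Comparisons across cell types used recovered reads with TMM factors from edgeR 4.0.16 computed over the 20 libraries at once, in 1 model, for genes reaching 10 in at least 2 libraries. Ratios were compared by exact permutation. CPM were computed from recovered reads. The pipeline was tested on simulated data. The 10 genes and all lists were chosen with earlier results of these data known. Named beside the 10 were, per list and cell type, up to 3 genes with the smallest p, and the 5 genes with the profile most like their mean; Bag3 and Hsf1 values in eosinophils were added after they were seen. Alternatives were other pseudocounts, filters, scalings, tests, a replicate block, Hspa1a and Hspa1b summed, and each library left out. Reads matching pseudogenes were checked: 10 annotated copies held 0 to 7 reads, against 9547 to 65934 for their parent genes.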

Additional observations from a re-analysis of the deposited data

Results flagged for a closer look

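In tumor eosinophils, library 2 had 2439 normalised reads of Hsp90aa1, the stress-inducible HSP90, and the next highest tumor library 1360.4. This gap was 0.771 of the range of the 7 libraries, above the critical value of 0.568 for a single outlying sample. It was the 1 such value among 30 combinations of gene and group that were checked, where chance alone gives about 1 in 20. The same library had a mitochondrial share of 34.9%, and the part of that in the value was not tested.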

How the results depend on the processing

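The sign of the change of the 5 genes called in eosinophils and of Dnaja1 in macrophages was the same under every alternative run; which of them passed the threshold was not. In eosinophils, 5 of the 10 genes were called as reported; the count was 3 with no filter on low values, 3 with TMM scaling, 2 with limma-voom and quality weights, and 2 to 6 with single libraries left out, among 93 to 951 genes called in all, where a group left with 1 library is assumed to vary like the other. limma-voom called 197 genes in all. edgeR's quasi-likelihood test called 602 genes and the same number, 5, of the 10. In macrophages, 1 of the 10 was called as reported; 2 were with a pseudocount of 10, 2 with a filter of 10 in 1 library, 3 with limma-voom and 0 to 5 with single libraries left out. For the difference of the tumor effects, 399 genes were called with no filter and 164 to 1766 with a library left out, and 0 of the 10 throughout these. Of the 10 between naive cell types, 1 was called with no filter and 0 to 4 with a library left out. Between tumor cell types, 9 were called as reported, 8 with no filter and 8 or 9 with a library left out, Dnaja1 being the one lost. The cause of these shifts was not tested.

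Deviations of same-numbered libraries correlated weakly, at 0.127 and 0.124 in eosinophils, with only 2 pairs, and at -0.311 to 0.056 in macrophages. Each naive eosinophil library correlated best with the tumor library of its own number, and no naive macrophage library did. Across cell types, tumor eosinophil libraries 1, 3 and 6 matched tumor macrophages of their own number best (0.088, 0.128 and 0.128), and 2, 4 and 5 did not. Deviations of the 2 naive eosinophil libraries from their mean are mirror images of each other, so their matches are not separate. With 2 pairs and low values, the eosinophil libraries cannot decide whether the numbers pair them. With the replicate block, 3 of the 10 genes (Dnaja1, Hspa1b and Hsph1) and 1116 genes in all were called in eosinophils, 1230 genes in macrophages and 401 for the difference. Between cell types the planned block within each cell type cannot be estimated; with a block shared by both cell types, chosen after seeing the data, 0 of the 10 were called between naive groups.

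Values that changed sign were all uncalled. With the replicate block in eosinophils, Hsp90ab1 was 0.088, Hspe1 0.13, Hsbp1 0.11, Hspb1 0.35, Hspb6 0.25 and Cct6a 0.51; the differences of the tumor effects were 0.0025 for Dnajb1, 0.13 for Hsp90ab1, 0.0039 for Hspd1 and 0.53 for Hspe1. Hspe1's difference was 0.18 with edgeR, 0.10 with median-of-ratios scaling and -0.33 to 0.30 with a library left out. Over single libraries left out, eosinophil changes ranged from -0.53 to 0.13 for Hsp90ab1, -0.69 to 0.16 for Hsbp1, -0.93 to 0.019 for Hspa4, -0.040 to 1.43 for Timm44, -0.96 to 0.23 for Yme1l1, -0.18 to 1.24 for Cct7, -0.92 to 0.31 for Cct6a, -0.11 to 1.76 for Pfdn1 and -0.18 to 1.49 for Pfdn6; the sign turned without naive library 1 for Hsp90ab1 and without naive library 2 for the others. Likewise, differences of the tumor effects were -0.89 to 0.11 for Dnajb1, -0.87 to 0.080 for Hspa1a and -0.59 to 0.14 for Hsp90ab1, and Hsp90ab1 in macrophages was -0.25 to 0.042. Between naive cell types, Dnaja1 was -0.034 with edgeR and -0.16 to 0.24 with a library left out, and Hspe1 -0.46 to 0.17.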
